A study of Mus musculus with 13 samples.

Results

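In mouse embryonic stem cells (mESCs), 1770 regions carried histone H3 trimethylated on lysine 27 (H3K27me3) in both replicates but lay away from protein-coding promoters and overlapped no peak of the Polycomb protein AEBP2. They were selected on peak overlaps in these same lists, by joining the H3K27me3 peaks of both replicates wherever these overlapped by at least 1 bp. A joined region was kept if it held a peak of each replicate, was distal, meaning that it did not reach within 1 kb of the start of a protein-coding gene, and overlapped no peak of 3 AEBP2 lists. There were 5801 regions with H3K27me3 in both replicates, of which the AEBP2-free distal regions made up 30.5% (95% Wilson interval 29.3 to 31.7%). From H3K27me3 replicate 1 or replicate 2 alone the share was 67.9 or 46.8%, and among peaks scoring at or above the median of their H3K27me3 list it was 16.9%. Of all 5801 regions, 2711 had no AEBP2 peak in any list (46.7%), and of the 2539 distal regions, 1770 had none (69.7%). These shares follow from the way the regions were chosen and were not tested. The other regions were 769 distal regions with AEBP2, 941 promoter regions without AEBP2 and 2321 promoter regions with AEBP2.

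The study asked where AEBP2 binds in relation to the Polycomb mark, using chromatin immunoprecipitation and sequencing (ChIP-seq), which recovers the DNA that an antibody pulls down and calls peaks where fragments pile up. The data were 5 lists of peaks, all from wild-type cells that the labels assign to the 129/1 XY ES cell line. H3K27me3 and endogenous AEBP2 had 2 replicates each, and AEBP2 with a Flag-StrepII tag at its N terminus (FS2-AEBP2), made from a plasmid, had 1 sample without a replicate. The methods give E14 as the mESCs of the tagged protein, its ChIP followed another protocol, and the labels give the histone antibody as against H3K27 without the methylation state. Nothing states that the replicates were separate cultures.

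Polycomb repressive complex PRC2 methylates H3K27 through its catalytic subunit EZH2 (or EZH1), with EED and SUZ12 as core partners, and AEBP2 is a zinc-finger subunit that joins only some PRC2 complexes, together with JARID2. In mESCs the mark is best known from CpG islands, the stretches of CpG-rich DNA at the promoters of silent developmental genes. Away from promoters it is also found over gene deserts, inside genes and at sites that can act as enhancers in other cells.

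Base sequence is shown first because CpG-island-like sequence was less frequent in the AEBP2-free distal regions than in the distal regions with AEBP2. Each sequence below is the middle 200 bp of the stretch that both H3K27me3 replicates shared, from the plus strand of the mm9 build, with every CpG dinucleotide in capitals. The first pair are the AEBP2-free distal regions with the highest score ranks whose shown window overlapped a CpG-island-like region, named by their nearest gene.
Exosc9, chr3:36420574-36420773: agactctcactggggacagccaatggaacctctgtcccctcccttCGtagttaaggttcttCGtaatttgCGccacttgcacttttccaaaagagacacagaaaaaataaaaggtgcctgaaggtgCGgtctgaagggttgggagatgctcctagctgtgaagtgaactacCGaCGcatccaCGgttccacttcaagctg
Lzts1, chr8:71707755-71707954: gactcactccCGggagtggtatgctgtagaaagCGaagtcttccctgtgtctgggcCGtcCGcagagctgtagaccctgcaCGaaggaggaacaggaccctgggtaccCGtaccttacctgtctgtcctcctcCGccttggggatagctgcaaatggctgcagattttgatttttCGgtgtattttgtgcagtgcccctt
The next 3 are the highest-ranked of those without a CpG-island-like region.
Tmem125, chr4:118220194-118220393: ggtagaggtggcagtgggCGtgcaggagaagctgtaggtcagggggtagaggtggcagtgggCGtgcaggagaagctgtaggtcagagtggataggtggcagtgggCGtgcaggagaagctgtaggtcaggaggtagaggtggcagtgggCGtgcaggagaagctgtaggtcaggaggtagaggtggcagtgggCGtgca
Nt5e, chr9:88212114-88212313: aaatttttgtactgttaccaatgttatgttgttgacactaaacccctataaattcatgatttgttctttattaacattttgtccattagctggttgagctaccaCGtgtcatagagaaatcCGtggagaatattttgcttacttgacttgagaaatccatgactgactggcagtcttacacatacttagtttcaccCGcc
Josd2, chr7:51734556-51734755: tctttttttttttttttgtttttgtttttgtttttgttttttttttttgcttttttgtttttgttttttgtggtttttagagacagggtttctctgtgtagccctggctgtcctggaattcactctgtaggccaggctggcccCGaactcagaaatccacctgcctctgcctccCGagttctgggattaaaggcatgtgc
The last pair are the highest-ranked distal regions with a peak in all 3 AEBP2 lists, for comparison.
Srcin1, chr11:97396551-97396750: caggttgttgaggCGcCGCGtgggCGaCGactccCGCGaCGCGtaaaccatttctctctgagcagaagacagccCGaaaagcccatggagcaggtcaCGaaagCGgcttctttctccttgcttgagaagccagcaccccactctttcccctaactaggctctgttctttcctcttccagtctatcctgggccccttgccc
Polg, chr7:86652682-86652881: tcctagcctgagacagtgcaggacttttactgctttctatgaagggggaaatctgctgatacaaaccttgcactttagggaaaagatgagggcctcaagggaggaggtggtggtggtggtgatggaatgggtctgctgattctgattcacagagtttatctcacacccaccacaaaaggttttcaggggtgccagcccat
The windows held 7 CpGs by Exosc9 and 8 by Lzts1, against 5 by Tmem125, 3 by Nt5e and 2 by Josd2. With AEBP2, the Srcin1 window held 12 CpGs and the Polg window 0, the latter lying outside the CpG-island-like part of its region of 23890 bp. The Tmem125 window is a tandem repeat, in which 94.2% of the bases matched the base 44 bp further on. By this measure (a match of at least 80% at some distance from 2 to 100 bp), 22 of the 1770 AEBP2-free distal regions had a tandem repeat in their middle window (1.24%, 0.822 to 1.87%), against 6 of 769 distal regions with AEBP2 (0.780%, 0.358 to 1.69%), and these intervals overlapped. Other kinds of repeat, and repeats outside the middle window, were not measured.

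Read numbers are not held in the lists, so the depth is unknown, and every interval given here covers counting error over regions only. The H3K27me3 lists held 14112 and 9275 peaks, the AEBP2 lists 2877 and 6779, and the FS2-AEBP2 list 2884. The cell type was checked on promoters. None of 11 pluripotency genes found in the annotation, Pou5f1, Nanog and Sox2 among them, had H3K27me3 in both lists. The Klf4 promoter had H3K27me3 in replicate 1 only and an AEBP2 peak, and the other pluripotency promoters had neither. All 12 lineage regulators, such as Pax6, Gata4 and Myod1, had H3K27me3 in both and an AEBP2 peak. AEBP2 replicate 2 did most to remove regions. It touched 710 of the 2539 distal regions, 314 of which were touched by no other AEBP2 list, whereas replicate 1 and FS2-AEBP2 touched 348 and 328, and 29 and 25 alone. Without AEBP2 replicate 2, there would have been 2084 AEBP2-free distal regions.

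The AEBP2-free distal regions were shorter and had lower peak scores than the distal regions with AEBP2. Their median length was 3634 bp (25th to 75th percentile 2318.75 to 5521.25 bp, full range 206 to 51198 bp), against 5893 bp for distal regions with AEBP2 and 3715 bp for promoter regions without AEBP2. From H3K27me3 replicate 1 or replicate 2 alone, their median length was 1411 or 1206 bp. A longer region has more room to overlap an AEBP2 peak, so the selection rule itself favours short regions. Its part in the difference in length was not tested. The caller gave each peak a whole-number score of unstated scale, so the highest score in a region was ranked among all peaks of its list. The median score was 6 in both replicates, at the 51.7 and 38.4 percentiles, and in distal regions with AEBP2 it was 14 and 13, at the 85.1 and 74.6 percentiles. Only 13 AEBP2-free distal regions (0.734%, 0.430 to 1.25%) scored above 90% of the peaks of both lists, against 96 of the 769 with AEBP2 (12.5%, 10.3 to 15.0%). In replicate 1 the 75th percentile of the AEBP2-free distal regions and the 25th percentile of the distal regions with AEBP2 both fell at a score percentile of 72.8.

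**Figure D1:**
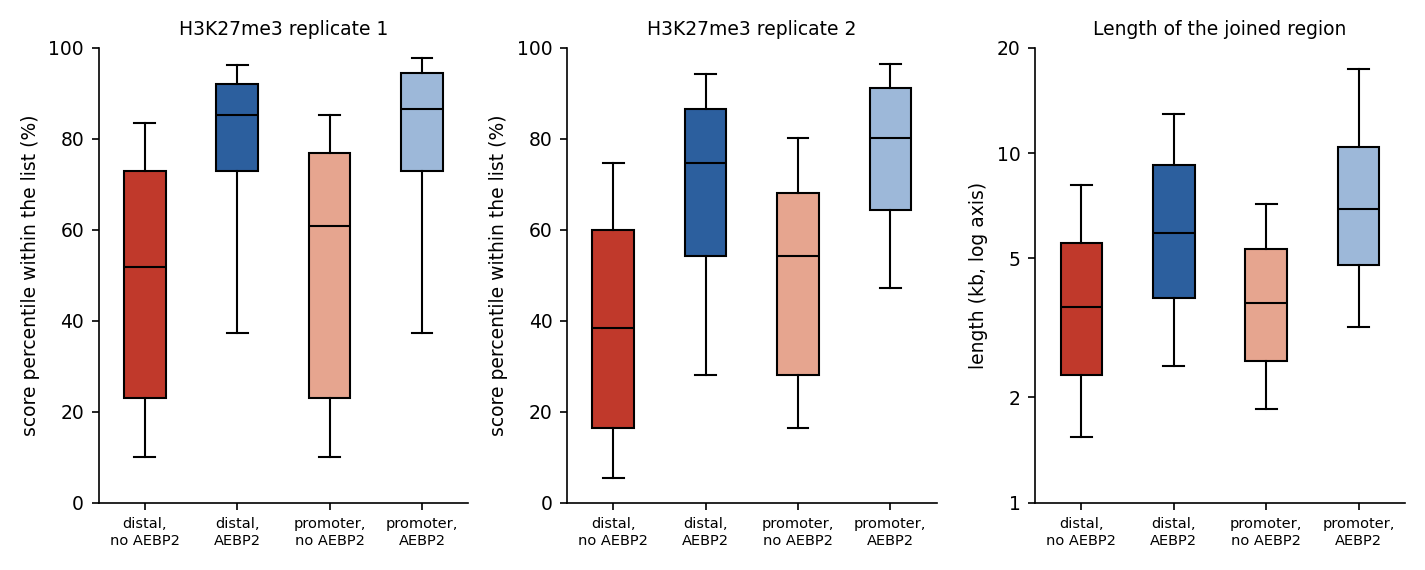
Score percentile of each region among the peaks of H3K27me3 replicate 1 (left) and replicate 2 (middle), and length in kb on a log axis (right), for 4 classes of H3K27me3 region. Lines are medians, boxes the 25th to 75th percentiles and whiskers the 10th to 90th percentiles; the AEBP2-free distal regions had medians at the 51.7 and 38.4 percentiles and 3634 bp, below the 85.1 and 74.6 percentiles and 5893 bp of the distal regions with AEBP2, all for regions found in both replicates.

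The replicates also shared less of each region. In 1454 of the 1770 regions (82.1%) a single peak of one list met a single peak of the other. That was also so in 80.1% of distal regions with AEBP2 and 79.2% of all 5801 regions. Yet the stretch covered by both lists was a median of 49.8% of an AEBP2-free distal region, against 71.3% where AEBP2 was present. Replicate 1 covered a median of 95.1% of a region and replicate 2 covered 69.7%. Inside each broad peak the caller marked narrower stretches of stronger signal. These covered a median of 21.7% of the AEBP2-free distal regions in replicate 1 and 14.2% in replicate 2, against 43.0 and 39.0% with AEBP2. Over the 1770 regions the scores of both replicates had a Spearman correlation of 0.31, and over the 769 regions with AEBP2 it was 0.55. These correlations run across regions of the same pair of libraries and carry no test.

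Most AEBP2-free distal regions had no CpG-island-like sequence, whereas most distal regions with AEBP2 did. CpG-island-like regions were built by joining windows of 500 bp in which G and C made up 55% or more of the bases and the CpG ratio, observed over expected, reached 0.65. One overlapped 408 of the 1770 AEBP2-free distal regions (23.1%, 21.1 to 25.1%), 658 of 769 distal regions with AEBP2 (85.6%, 82.9 to 87.9%) and 647 of 941 promoter regions without AEBP2 (68.8%, 65.7 to 71.6%). The difference between distal regions with and without AEBP2 was 62.5 percentage points (Newcombe 95% interval 59.2 to 65.5). The direction was the same from each H3K27me3 list alone. With replicate 1 alone the share was 5.38% of 9575 AEBP2-free distal regions against 80.3% with AEBP2, and with replicate 2 alone 14.3% of 4345 against 83.1%. The AEBP2-free share therefore depended on asking for the mark in both replicates. It also depended on the definition, since with windows of 200 bp, 50% GC and a ratio of 0.6 it was 58.1% against 97.7%, a difference of 39.6 points. Where a CpG-island-like region was present it had a median of 740 bp in the AEBP2-free distal regions and 1170 bp in those with AEBP2.

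Over the whole region, the median GC content was 48.0% without AEBP2 and 51.5% with it. The observed to expected CpG ratio, which falls where methylated cytosines have been lost over evolution, had a median of 0.229 against 0.373, and there were 1.32 CpGs per 100 bp against 2.36. A ratio under 0.5 was common in every class. It was found in 1708 of the 1770 AEBP2-free distal regions (96.5%), 84.4% of distal regions with AEBP2 and 87.2% of all 5801 regions. Among the 4 classes of region, the AEBP2-free distal regions had the lowest CpG ratio at the 25th, 50th and 75th percentiles, and their 75th percentile, 0.308, was below the median of the promoter regions without AEBP2, 0.330.

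**Figure D2:**
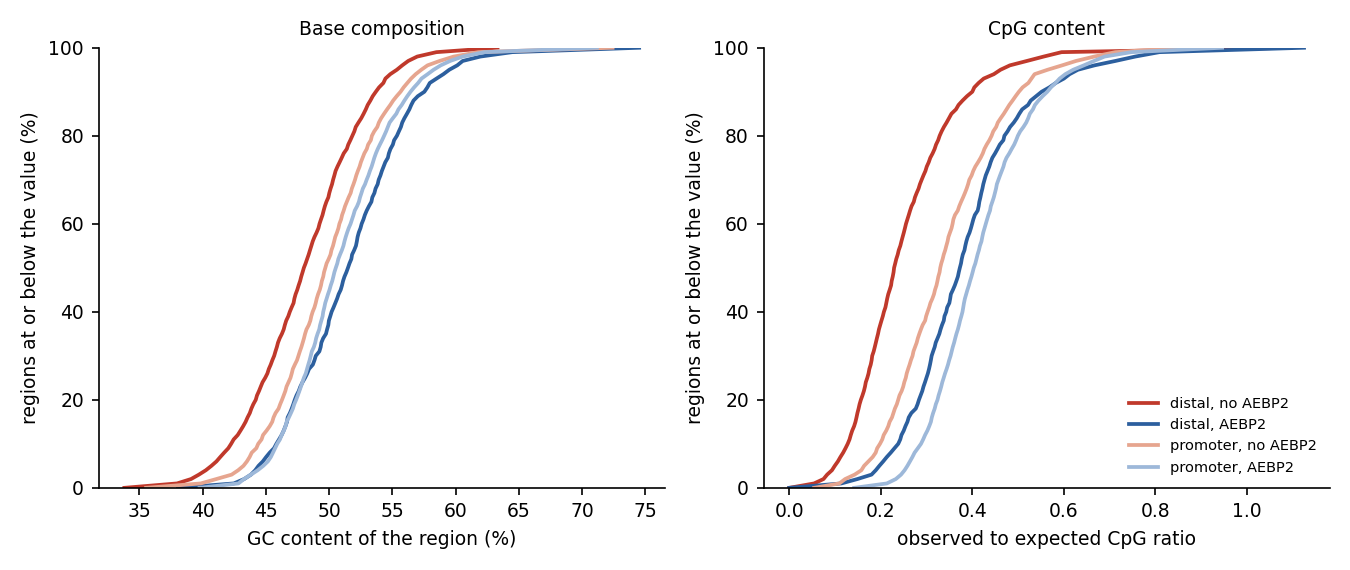
Share of regions (%) at or below each GC content (left) and each observed to expected CpG ratio (right), 1 line per class of H3K27me3 region. The AEBP2-free distal line lies to the left in both panels, with medians of 48.0% GC and a ratio of 0.229, against 51.5% and 0.373 for distal regions with AEBP2.

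The difference was present at every length. The 2539 distal regions were divided by length into 5 bins of equal size, from 206 to 2314 bp in the shortest to 7438 to 51198 bp in the longest. The share without AEBP2 was 87.0% in the shortest bin, then 80.1, 75.4 and 60.9%, and 45.1% (40.8 to 49.4%) in the longest. The share of AEBP2-free regions with a CpG-island-like region was 18.8, 25.6, 27.2, 25.9 and 16.2% in the same order, against 72.7, 76.2, 92.0, 88.4 and 87.1% with AEBP2. In AEBP2-free regions the interval of the longest bin (12 to 21.5%) overlapped that of the shortest (15.4 to 22.7%). Because a longer region has more room to overlap a peak, the falling share without AEBP2 is partly set by the selection rule.

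**Figure D3:**
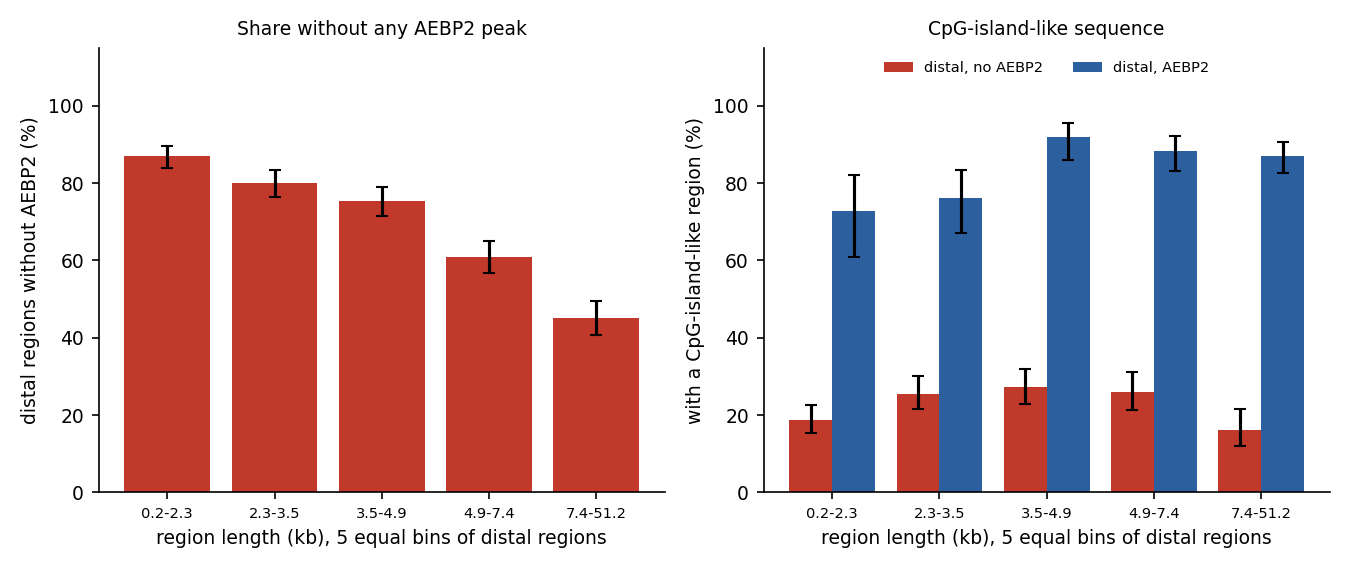
Distal H3K27me3 regions in 5 bins of length (kb). Left, percent without any AEBP2 peak, from 87.0% in the shortest bin to 45.1% in the longest; right, percent with a CpG-island-like region in regions without and with AEBP2, with 95% Wilson intervals as bars on both panels. The AEBP2-free bars stay between 16.2 and 27.2% and those with AEBP2 between 72.7 and 92.0%.

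AEBP2 was more often absent where the score was low and where there was no CpG-island-like sequence. In 5 bins of the mean score percentile, the share of distal regions without AEBP2 was 92.2% in the lowest, then 88.6, 81.9 and 59.4%, and 26.0% in the highest. Among the 1066 distal regions with a CpG-island-like region, 38.3% had no AEBP2, falling from 73.0% in the lowest bin of scores to 12.4% in the highest (49 of 394 regions). Among the 1473 without one, 92.5% had no AEBP2, and in the highest bin it was still 73.5% (83 of 113 regions, 64.6 to 80.7%). The part of the peak-calling threshold in this was not tested.

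The AEBP2-free distal regions that did have a CpG-island-like region stood closer to genes. Of the 408, 219 (53.7%) overlapped the body of a protein-coding gene and 158 (38.7%) lay within 1 kb of some other annotated transcript start, against 484 (35.5%) and 162 (11.9%) of the 1362 without. Their median GC content was 50.2% against 47.4% and their median CpG ratio 0.339 against 0.206, both of which follow partly from how the sequence was defined. The regions with most CpG-island-like sequence were by Phf21a (2090 bp), in Tspan9 (1990 bp), in the protocadherin cluster at Pcdha11 (1846 bp), by Psd2 (1760 bp) and in Celf2 (1620 bp), and those of Phf21a, Tspan9, Pcdha11 and Celf2 lay within 1 kb of another transcript start. The Phf21a region, chr2:91897889-91902457, lay only 1665 bp from an AEBP2 peak and had scores of 1 and 6, while the Tspan9 region, chr6:127982288-127987391, had scores of 18 and 15 with the nearest AEBP2 peak 261394 bp away.

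By annotation (GENCODE vM1), 1067 AEBP2-free distal regions (60.3%, 58 to 62.5%) lay outside protein-coding genes and 703 (39.7%) overlapped a gene body, 434 (24.5%) an exon and 269 (15.2%) introns only. Distal regions with AEBP2 were more often genic. Of these 58.5% overlapped a gene body, 18.8 points more (14.6 to 22.9), and 49.8% an exon, 25.3 points more (21.2 to 29.3), whereas introns alone were rarer, at 8.71%. The gene-body share of AEBP2-free distal regions was 38.7% and 39.5% from each H3K27me3 list alone. An alternative start of a protein-coding gene lay within 1 kb of 200 AEBP2-free distal regions (11.3%) and a lincRNA start within 1 kb of 24 (1.36%), against 28.3 and 5.59% with AEBP2. Pseudogene starts were about as frequent in both, at 2.82 and 2.47% (difference -0.354 points, -1.60 to 1.16). Counting every annotated transcript, 320 AEBP2-free distal regions (18.1%, 16.4 to 19.9%) had a start within 1 kb, against 40.8% with AEBP2. From replicate 1 or replicate 2 of H3K27me3 alone the AEBP2-free share was 7.51 or 12.6%. A longer region has more room to overlap a gene, and the part of length in these shares was not tested. Among distal regions of at least 12 kb, a gene body was overlapped by 36.5% (25.7 to 48.9%) without AEBP2. With AEBP2 it was 49.0% (39.3 to 58.7%), so these intervals overlapped. Any transcript start lay within 1 kb of 17.5% (10.0 to 28.6%) against 43.9% (34.5 to 53.7%).

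The median distance to the nearest protein-coding start was 31241 bp, against 24110 bp for distal regions with AEBP2. There were 200 AEBP2-free distal regions under 5 kb from a start, 484 between 5 and 20 kb, 690 between 20 and 100 kb and 396 farther than 100 kb (22.4%, 20.5 to 24.4%). Beyond 100 kb the share with AEBP2 was 17.0%, a difference of -5.34 points (-8.53 to -1.95). The nearest AEBP2 peak was within 10 kb for 344 regions (19.4%, 17.7 to 21.3%) and farther than 100 kb for 602 (34.0%), with a median of 52557.5 bp. The share within 10 kb rested on AEBP2 replicate 2, without which it was 12.9%.

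Some AEBP2-free distal regions came in groups. Peaks were joined only where they overlapped, and whether neighbouring regions are parts of 1 broader stretch was not tested. With H3K27me3 peaks within 1 kb joined, there were 1602 AEBP2-free distal regions. Of the 1770, 521 (29.4%, 27.4 to 31.6%) had another within 20 kb, a share that was 19.1% for distal regions with AEBP2 measured to their nearest AEBP2-free distal region. No other H3K27me3 region of any class lay within 100 kb of 408 (23.1%), against 28.1% of distal regions with AEBP2 and 36.6% of all 5801 regions. Chaining neighbours within 20 kb gave 5 groups of 6 and 5 groups of 5 regions, and 1249 single regions. The groups of 6 lay by Kif21a, a kinesin, by the MHC class I gene H2-T3 and Rpp21, between Zc3h12a and the kainate receptor gene Grik3, by Pja1 on the X chromosome, and downstream of Sox9. In the group by Grik3, 47555 of 58384 bp lay inside AEBP2-free distal regions, and in that by Pja1 52080 of 63612 bp. The group by Pdia4, chr6:47688041-47717170, was of another kind. Its 5 regions covered only 2433 bp, with 4 of them 225, 229, 238 and 294 bp long, yet scored up to 14 in replicate 1 and 42 in replicate 2. The groups and loci beyond the naming rule were chosen after their values were seen.

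The density of AEBP2-free distal regions was 0.667 per Mb over the chromosomes used. It was highest on chromosome 11 (1.24 per Mb) and chromosome 8 (1.20 per Mb), and lowest on the X chromosome (0.342 per Mb), while no H3K27me3 peak was listed on the Y chromosome. On chromosome 8 they made up 41.3% (36.4 to 46.2%) of all H3K27me3 regions, 158 of 383, against 31.6% on chromosome 11 and 23.7% (17.7 to 31%) on chromosome 19. The H3K27me3 lists as a whole were also dense there, with 8.54 and 4.62 peaks per Mb on chromosome 8 and 9.09 and 5.98 on chromosome 11, against 5.32 and 3.49 overall. On the X chromosome they had 1.72 and 1.44, and AEBP2-free distal regions made up 37.7% (30.4 to 45.7%) of its 151 H3K27me3 regions. Gene density differed between the leading chromosomes, at 8.21 protein-coding genes per Mb on chromosome 8 and 13.6 on chromosome 11. The part of either in the number of regions was not tested.

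**Figure D4:**
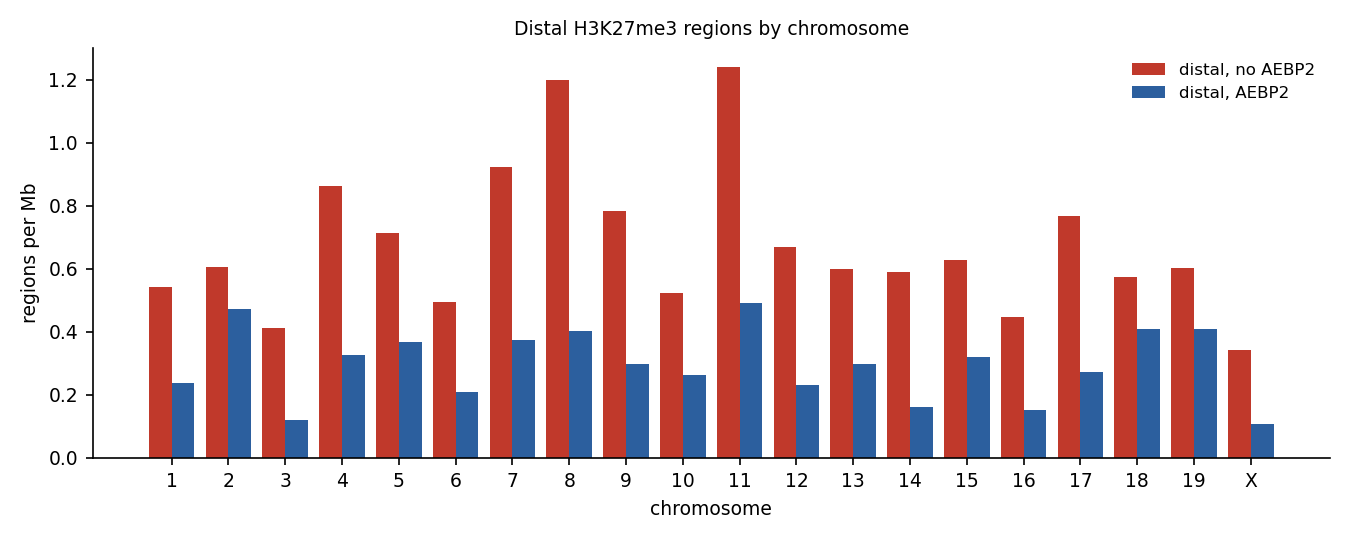
Regions per Mb on each chromosome for distal H3K27me3 regions without AEBP2 and with AEBP2. Chromosomes 11 and 8 have the tallest bars without AEBP2, at 1.24 and 1.20 per Mb, and the X chromosome the lowest, at 0.342; the Y chromosome, with no region, is left out.

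The longest AEBP2-free distal region lay inside Pappa, which encodes a metalloproteinase that cleaves IGF-binding proteins. It ran over chr4:64890008-64941205, 51198 bp that start 104.8 kb into the gene and overlap its exons, had scores of 26 and 22, and both replicates covered 92.5% of it. The caller placed 37 and 43 strong stretches in it. Its GC content was 41.7% and its CpG ratio 0.142, and it held no CpG-island-like sequence. The nearest AEBP2 peak was 102.485 kb away, at the Pappa start, where both replicates and FS2-AEBP2 had one. Another pair of AEBP2-free distal regions, of 1800 and 3169 bp, followed directly downstream.

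Sox9, which encodes a transcription factor of cartilage, testis and neural crest, had 9 AEBP2-free distal regions, none inside the gene. They lay between -162.1 kb (upstream) and 419.4 kb (downstream) of its start and together covered 101943 bp. The largest was chr11:112798806-112843572, 44767 bp that begin 155.3 kb downstream, with a score of 22 in each replicate, covered fully by replicate 1 and to 58% by replicate 2. Closer to the gene, at 72.2 to 94.3 kb, a region of 22123 bp scored 12 and 13. The 5 others within 104.8 kb downstream were 2958 to 8495 bp long and scored from 5 to 7 and from 4 to 6. Only the farthest downstream, 3938 bp at 415.5 kb, had a CpG-island-like region. At the Sox9 start itself the mark and all 3 AEBP2 lists were present.

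**Figure D5:**
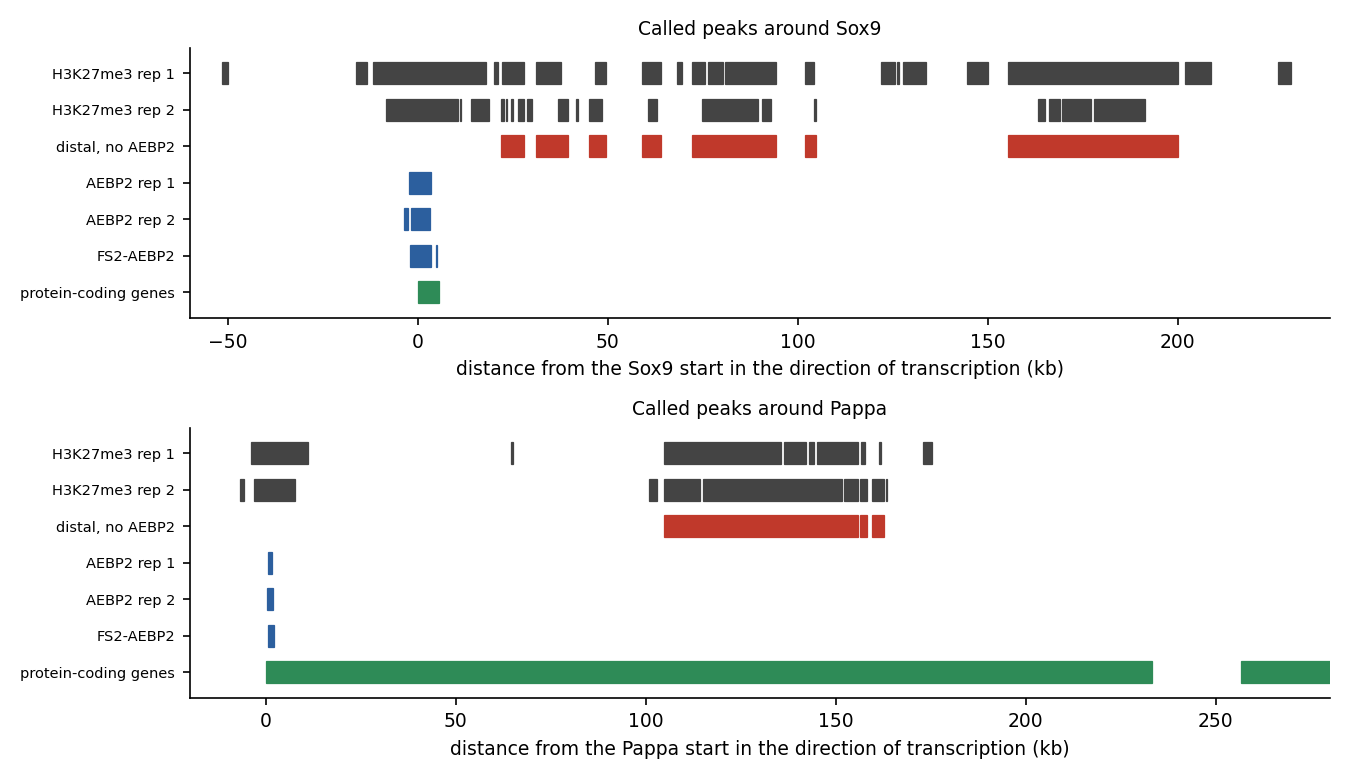
Called peaks of the 5 lists, AEBP2-free distal regions and protein-coding genes by distance from the start of Sox9 (top) and Pappa (bottom), in kb along the direction of transcription. The AEBP2 peaks sit at the gene starts, and the AEBP2-free distal regions lie 22 to 200.0 kb downstream of the Sox9 start and 104.8 to 162.7 kb downstream of the Pappa start.

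Several other genes of developmental regulators also had AEBP2 on their own promoter and AEBP2-free regions at a distance from it. Pax3, a regulator of neural crest and muscle, had 4, and the main one, chr1:78116738-78134404, lay 59.3 kb downstream of the start inside the gene, measured 17667 bp and scored 24 in each replicate. Six3, needed for forebrain and eye, had 5, the largest being 19865 bp at 22 kb downstream with scores of 26 and 17. The 5 by Six3 each had an AEBP2 peak 1.6 to 14.3 kb away, whereas the largest by Sox9 was 150.2 kb from one. Nkx6-1, a regulator of ventral neural tube and beta cells, had 3, among them 14450 bp at 119.0 kb downstream with scores of 16 and 26. Irx2 had 4, including 14290 bp at 189.6 kb downstream with scores of 13 and 8. Foxa2 had 2, and the largest of these was 15053 bp long. Of these 6 genes, Sox9 included, only the regions by Sox9 and Six3 included any with CpG-island-like sequence.

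Of the 10 regions with the highest score ranks, 2 belonged to developmental transcription factor genes. By rank they were at Tmem125, Nt5e, Josd2, Pax3, Usp10, Pappa, Csnk1e, Sox9, Gm13247 and Fcgr3. The Tmem125 region, chr4:118219124-118221399, with the tandem repeat shown above, scored 24 and 60, the latter above 99.9% of replicate 2. Nt5e encodes the ectonucleotidase CD73, and its region of 5471 bp, 6497 bp upstream of the start, scored 22 and 29. Josd2 and Usp10 encode deubiquitinases, with regions of 9964 and 2885 bp that scored 19 and 31, and 19 and 30. The Csnk1e region, by the gene of a casein kinase, scored 37 and 19. Fcgr3, an Fc receptor gene, had 1547 bp with scores of 21 and 22 and 822 bp of CpG-island-like sequence. The longest regions after those of Pappa and Sox9 were by Trim29 (34987 bp), in Bcmo1, which encodes a carotene oxygenase (31544 bp), and in the annotated span of Fgfr2 (30563 bp).

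Regions of at least 12 kb made up 10.9% of all 5801 regions and 12.7% of distal regions with AEBP2. Among AEBP2-free distal regions there were 63 (3.56%, 2.79 to 4.53%). CpG-island-like sequence was present in 7 of them (11.1%, 5.49 to 21.2%), against 82 of the 98 distal regions with AEBP2 of that length (83.7%, 75.1 to 89.7%). Their median CpG ratio was 0.191 (range 0.119 to 0.291) against 0.296. Their median scores were 13 and 10, higher than the 6 and 6 of all AEBP2-free distal regions, and the nearest AEBP2 peak was a median of 64520 bp away.

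Genes holding several AEBP2-free distal regions in their body were long. Of 544 such genes, 442 held 1, 69 held 2 and 22 held 3. Gm20388 held 8 and Fgfr2 held 6, but their annotated spans of 4435 and 3009 kb cover many other genes. Accn1, an acid-sensing ion channel gene of 1088 kb, held 6, as did Anks1b, a gene of 1099 kb for a synaptic adaptor. Dlgap2, which encodes a postsynaptic scaffold protein, Wwox and the homeobox gene Zfhx3 held 5 each. The cadherin gene Cdh22, Celf4, the ephrin receptor gene Ephb1 and the neurexin gene Nrxn3 held 4 each. Of the regions in these 11 genes, CpG-island-like sequence was found in 1 in Gm20388, 2 in Zfhx3 and 1 in Nrxn3. The promoters of Gm20388, Fgfr2, Wwox and Nrxn3, taken at their annotated starts, had no H3K27me3 region found in both replicates.

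Each region was given to the gene that held it or, failing that, to the gene with the nearest start. The 1770 regions fell to 1286 of 22367 protein-coding genes (5.75%), of which 298 had at least 2. For 803 regions (45.4%, 43.1 to 47.7%) the promoter of that gene had H3K27me3 in both replicates, and over distinct genes it was 557 of 1286 (43.3%, 40.6 to 46.0%), against 15.6% of all protein-coding genes. For distal regions with AEBP2 it was 41.6% (38.2 to 45.1%) of regions and 41.5% of distinct genes, so these intervals overlapped. The genes given to AEBP2-free distal regions had a median length of 31.7 kb, against 15.4 kb for all genes, and the part of length was not tested. The promoter of the assigned gene had an AEBP2 peak for 775 regions (43.8%, 41.5 to 46.1%), against 42.9% for distal regions with AEBP2 and 23.3% of all protein-coding promoters, and H3K27me3 as well as AEBP2 for 631 (35.6%). For 823 (46.5%) it had neither.

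Gene groups, except the imprinted, pluripotency and lineage lists, were formed by how gene symbols begin. They can hold genes of other function, such as Cdh5 in the adhesion group. Groups were described by how many of their genes had been given an AEBP2-free distal region, at whatever distance. Of 233 developmental transcription factor genes, 60 had (25.8%, 20.6 to 31.7%), with 108 regions between them, against the 5.75% of all genes. Beside those already named, Foxn3 had 4, Zfhx3 had 6, Sox5 had 3 and Dlx2 had 1, a region of 6803 bp that scored 21 and 11. Of 171 genes of axon guidance and neural adhesion, 30 did (17.5%, 12.6 to 23.9%), with 60 regions, of which 3 had CpG-island-like sequence. Among these, Nrxn3 had 7, Cdh5, the cadherin of blood vessel walls, had 5, and the guidance ligand gene Slit3 had 3, up to 15908 bp long. Of 240 ion channel and neurotransmitter receptor genes, 35 did (14.6%), and of 110 genes of Wnt, BMP, FGF, Hedgehog and Notch signalling, 20 did (18.2%). In the last group, Hey1, a Notch target, had a region of 13078 bp, Wnt11 had 2, the higher-ranked with scores of 31 and 7, and Bmp7 had 1 with scores of 9 and 15. Promoter H3K27me3 was itself common in these groups, at 79.0% of the transcription factor genes and 61.4% of the adhesion genes.

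Of 23 imprinted genes, 6 did (26.1%, 12.5 to 46.5%), a small number with a wide interval. Dlk1, which encodes a protein related to Notch ligands, had 3, the largest being 8498 bp at 17.9 kb downstream of its start with a score of 10 in each replicate. Kcnq1 and Grb10 had 2 each, and Igf2, Sfmbt2 and Smoc1 had 1 each. Below the 5.75% of all genes were the olfactory and vomeronasal receptor genes, of which 8 of 1422 had one (0.563%, 0.285 to 1.11%). Of 76 cytosolic ribosomal protein genes 3 did (3.95%, 1.35 to 11%), an interval that holds the share of all genes. Of the 11 pluripotency genes 3 did (27.3%, 9.75 to 56.6%). Esrrb had 2, 1 of them inside the gene, Klf4 had 1 at 116076 bp from its start, and Dppa3 had 1 of 3373 bp 2293 bp from its start with scores of 8 and 3. Of the 12 lineage regulators 6 did (50.0%, 25.4 to 74.6%), namely Foxa2, Myod1, Pax6, Sox17, T and Lhx2.

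At the limits of the definition, the closest region to an AEBP2 peak, by Enkur, was 2 bp from it, followed by those in Bai1 (31 bp) and Meig1 (60 bp). Those nearest to a protein-coding start were in Krt19 and by Mycbp2 and Mast3, 1003, 1005 and 1007 bp away. Just outside, the distal regions in Dab1, in Nes and by Gadd45g overlapped an AEBP2 peak by 21, 33 and 55 bp. The AEBP2-free regions by Epb4.1l2, Tanc2 and Hivep1 reached 18, 20 and 20 bp into a promoter window. The Nes region measured 11950 bp and scored 23 and 20, above 94.5 and 89.6% of the peaks of the lists.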

How the data were processed

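ChIP-seq peak lists of 5 wild-type mESC samples were analysed, 2 for H3K27me3, 2 for AEBP2 and 1 for FS2-AEBP2. The submitters' processing notes name Bowtie, SAMtools, Picard and MACS2 2.0.10.2 and the mm9 build. The authors called broad peaks sample by sample, and each deposited peak has a whole-number score, whose scale and thresholds are not given in the sources used here, and a number of narrower blocks (other), of which those over 1 bp were used. Only chromosomes 1 to 19, X and Y were analysed. Replicate numbers of H3K27me3 follow the sample records, with which the names of its lists seem to disagree. SUZ12, input and Aebp2tr/tr samples were not analysed here, and 1 sequence that the rule for sequences would show is not reported here.

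Regions were joined, and classed with GENCODE vM1, in Python 3.11.15 with numpy 2.4.6, pandas 2.3.3 and matplotlib 3.10.9, and the code was tested on simulated lists. A distance is from the edge of a region. Windows for CpG-island-like regions were moved by 10 bp. No test was run over samples, of which H3K27me3 had 2, so shares have Wilson and differences Newcombe intervals, and each H3K27me3 list was also used alone. The regions and gene lists were chosen with earlier results of these data known. Named were the 10 highest mean score percentiles, the 5 longest, the 5 with most CpG-island-like sequence, genes holding at least 4 (at most 10, but 4 genes tied at the limit, so 11 are given), those nearest each limit, and examples from the gene lists, the examples chosen after their values were seen.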

Additional observations from a re-analysis of the deposited data

How the results depend on the processing

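Alternatives kept the direction of the difference in CpG-island-like sequence in each case, and the cause of each shift was not tested unless the change itself sets it. Leaving out 1 replicate at a time gave 1770 regions as 1799 to 9575, 30.5% of regions as 31 to 67.9%, the CpG-island-like share of 23.1% as 5.38 to 31.5%, its difference of 62.5 points as 58.6 to 74.9, the median length of 3634 bp as 1206 to 3799 bp, the gene-body share of 39.7% as 38.7 to 42.1%, the other-start share of 18.1% as 7.51 to 20.8% and the share within 10 kb of AEBP2 of 19.4% as 12.9 to 25.7%. Without FS2-AEBP2 there were 1795 regions, 30.9% of all. A value was taken as moved if a count changed more than 1.5-fold or a share or difference left its main interval. A length moved if it shifted by 145 bp or more. By this rule the counts of 2094 (AEBP2 scores at or above the median), 1570 (all starts of protein-coding genes) and 1450 (every annotated start) did not move. The same 8 values, where they moved, were as follows. With H3K27me3 scores at or above the median they were 628 regions, 16.9%, 32%, 56.3 points, 4765 bp, 36.9%, 22.3% and 17.4%. With AEBP2 scores at or above the median they were 36.1%, 31.6%, 3796.5 bp, 42.7%, 21% and 12.6% (all but the number and the difference). With AEBP2 covering at least 10% of a region, the share of regions was 32.9%, CpG-island-like 26.7%, length 3788 bp and within 10 kb 25.2%. Joining H3K27me3 peaks within 1 kb gave 28.9% of regions, 3916.5 bp and 14.5% within 10 kb. Widening AEBP2 peaks by 1 kb gave 17.4% within 10 kb. Promoters of 2.5 kb gave 28.9% of regions, and a minimum length of 2000 bp gave 27.5% and 4183 bp. With all starts of protein-coding genes, the share of regions was 27.1%, CpG-island-like 19.6%, gene body 32% and other starts 7.64%, and with every annotated start 25%, 17.2%, 32.8% and 0%. Windows of 200 bp gave 58.1% and 39.6 points. No paired analysis was possible because no result comes from a test. Depth is unknown, so a missing peak does not show that AEBP2 was absent.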
